A study of Mus musculus and Homo sapiens with 12 samples.

Results

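The tRNAs for cysteine, phenylalanine and tryptophan were followed through a genome-wide tRNA-charging assay of 12 libraries. Members were all deposited lines whose names contain tRNA-Cys-GCA, tRNA-Phe-GAA or tRNA-Trp-CCA, and their reads were summed for each tRNA. In the mouse reference they made up 31 of 224 tRNA genes, with 22 genes for tRNA-Cys-GCA, 3 for tRNA-Phe-GAA and 6 for tRNA-Trp-CCA. In the human reference they made up 33 of 260, with 23, 5 and 5 genes respectively. Both references list 1 anticodon for each of these amino acids, so the sum for the isoacceptor is also the sum for the amino acid.

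A tRNA carries its amino acid as an ester on the terminal adenosine of the CCA tail, where a dedicated aminoacyl-tRNA synthetase attaches it. Cysteine and phenylalanine are each specified by a pair of codons that a single anticodon can read through wobble pairing, and tryptophan has only the codon UGG. An uncharged tRNA can bind GCN2, the protein kinase that starts the integrated stress response. The charged share of a tRNA depends on how well its amino acid and its synthetase keep up with translation. In the assay, periodate oxidizes the exposed end of an uncharged tRNA, the damaged nucleotide is lost, and the charged tRNA keeps its full CCA end. Reads that end in CCA were therefore counted as charged and those that end in CC as uncharged, and the percentage of charging is the charged share of the reads with either end.

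MEF cells, which are mouse embryonic fibroblasts, were placed in medium with dialyzed serum, either without drug (NT) or with 100 nM halofuginone (HF), an inhibitor of the prolyl-tRNA synthetase activity of EPRS. The labels give 6 h of HF. NTERT cells, an immortalized human keratinocyte line, were left untreated (NT) or exposed to 400 J/m2 UV-B followed by 3 h of recovery. Each of the 4 groups holds 3 libraries, and MEF and NTERT cells differ in species and reference as well as in treatment, so that their values are set side by side without a test.

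Depth on tRNA genes was 617693 to 6286863 reads in the MEF libraries and 253693 to 1992671 in the NTERT libraries. The share of all reads that aligned to tRNA genes was 3.43 to 9.52% in MEF NT and 19.1 to 27.8% in MEF HF, and this difference cannot be told apart from the treatment. The 3 tRNAs for proline, the target of HF, were lower in MEF HF by 2.25 to 2.52 on the log2 scale of charged over uncharged reads (largest adjusted p = 0.0268, limma). Their HF and NT libraries did not overlap, beside 29.2% of all isoacceptors tested. No isoacceptor passed the threshold of 0.05 once MEF NT library 1 or MEF HF library 2 was left out. The unnamed number columns were read as all, charged and uncharged reads. Under the other reading of the last 2, MEF cells would hold more charged proline tRNAs in the presence of an inhibitor of their synthetase. The NTERT files have no such check and were read alike. If the last 2 columns were exchanged, every percentage of charging below would become 100 minus the value given and every change in charging would turn its sign.

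tRNA-Cys-GCA was the least charged of the 3 tRNAs in 12 of 12 libraries. It was 64.2, 44.7 and 76.2% charged in MEF NT libraries 1 to 3 and 78.1, 81.8 and 69.0% in MEF HF. In the NTERT cells it was 37.3, 27.8 and 32.1% charged in NT and 23.1, 35.7 and 37.4% after UV-B. The control and treated libraries overlapped in both cell types. The means were 61.7% ± 15.9 (SD, n = 3) in MEF NT, 76.3% ± 6.60 in MEF HF, 32.4% ± 4.75 in NTERT NT and 32.0% ± 7.82 in NTERT UV-B.

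tRNA-Phe-GAA lay in the middle of the order in most libraries. Its charging was 70.2, 57.5 and 81.7% in MEF NT and 91.4, 87.2 and 79.1% in MEF HF. The values in NTERT NT were 61.9, 59.8 and 54.7%, and those after UV-B were 65.4, 44.2 and 67.0%. Again the groups overlapped, because MEF HF library 3 fell below MEF NT library 3 and because the UV-B libraries spread on both sides of the controls. Means were 69.8% ± 12.1, 85.9% ± 6.24, 58.8% ± 3.67 and 58.9% ± 12.7 in the same order of groups.

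tRNA-Trp-CCA was the most charged in 10 of 12 libraries. It reached 74.6, 67.5 and 86.0% in MEF NT and 92.9, 89.8 and 85.2% in MEF HF. In NTERT NT it was 69.0, 60.0 and 67.7% charged, and after UV-B 58.3, 63.6 and 62.9%. As for the other two tRNAs, the treated and control libraries overlapped. The means were 76.0% ± 9.33, 89.3% ± 3.87, 65.6% ± 4.85 and 61.6% ± 2.88.

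**Figure D1:**
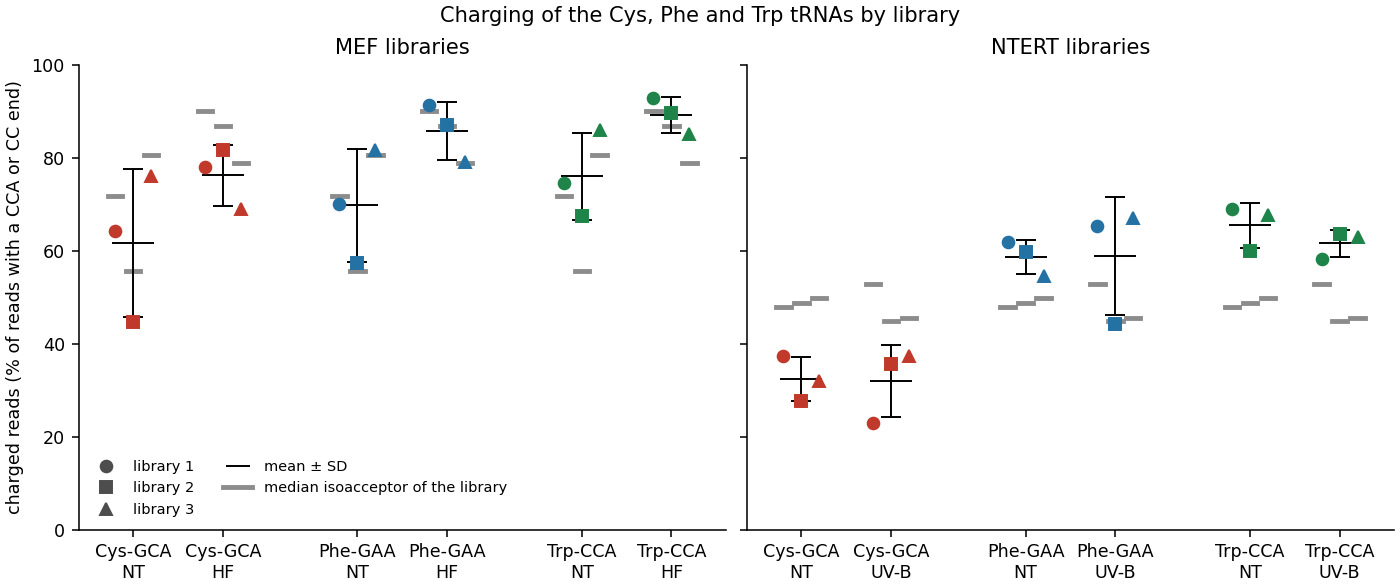
Percentage of charging (y axis) of the 3 tRNAs in the control and treated libraries of MEF and NTERT cells, with each library as a point, the mean and SD in black and the median isoacceptor of the same library as a grey bar. tRNA-Cys-GCA sits below the grey bar in all 12 libraries, and control and treated points overlap for each tRNA.

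The order within a library was steadier than the levels. tRNA-Phe-GAA exceeded tRNA-Cys-GCA by 5.45 to 42.3 percentage points, and tRNA-Trp-CCA exceeded tRNA-Cys-GCA by 8.01 to 35.6 points. tRNA-Trp-CCA lay above tRNA-Phe-GAA in 6 of 6 MEF libraries, by 1.52 to 10.0 points. In NTERT cells it did so in 4 of 6 libraries, and in UV-B libraries 1 and 3 the difference was -7.05 and -4.08 points. Across libraries, the ranges of tRNA-Phe-GAA and tRNA-Trp-CCA overlapped in each of the 4 groups, although within MEF libraries the difference had the same sign in each. In NTERT cells, where its sign varied, these neighbors did not differ beyond their spread. The range of tRNA-Cys-GCA overlapped that of tRNA-Phe-GAA in MEF NT and MEF HF, but in NTERT cells its highest value, 37.4%, was below the lowest of tRNA-Phe-GAA, 44.2%.

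The precision of each percentage depends on the reads behind it. In MEF cells the percentages rested on 405 to 4346 reads with an end for tRNA-Cys-GCA, 1066 to 7703 for tRNA-Phe-GAA and 453 to 2572 for tRNA-Trp-CCA. In NTERT cells they rested on fewer reads, 223 to 1584, 78 to 519 and 65 to 291 respectively. The thinnest values were those of tRNA-Trp-CCA in NTERT NT library 2, 60.0% with a 95% Clopper-Pearson interval of 47.1 to 72.0%, and of tRNA-Phe-GAA in UV-B library 1, 65.4% with an interval of 53.8 to 75.8%. Even so, the interval of tRNA-Phe-GAA in UV-B library 2, 35.8 to 52.9%, did not reach that in UV-B library 3, 62.1 to 71.7%. Such intervals cover counting error only and take each read as independent. Reads amplified by PCR are not independent molecules, so the intervals can be too narrow.

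The level of charging also varied between libraries for the isoacceptors as a whole. The median isoacceptor was 71.9, 55.7 and 80.7% charged in MEF NT libraries 1 to 3 and 90.1, 86.9 and 78.9% in MEF HF. This is the order of libraries seen for tRNA-Phe-GAA and tRNA-Trp-CCA within each MEF group. In NTERT cells the median varied less, from 48.0 to 49.9% in NT and from 45.0 to 52.8% after UV-B. After the library median of log2 charged over uncharged reads (the log2 ratio) was subtracted, tRNA-Phe-GAA lay between -0.12 and 0.22 in the 6 MEF libraries. In NTERT cells it lay between -0.04 and 1.28, above the median in 5 of 6 libraries. tRNA-Trp-CCA lay above the median in 12 of 12 libraries, by 0.19 to 0.73 in MEF and 0.32 to 1.26 in NTERT cells. tRNA-Cys-GCA lay below it in 12 of 12, between -1.36 and -0.38 in MEF and between -1.89 and -0.48 in NTERT cells.

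**Figure D2:**
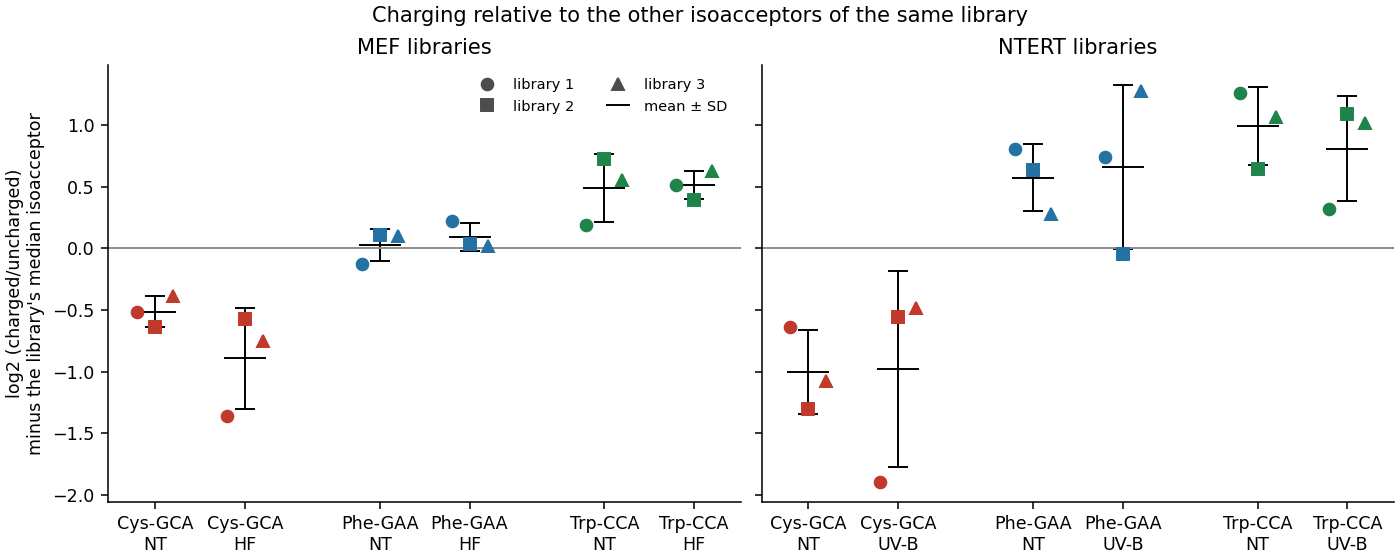
Log2 charged over uncharged reads minus the median isoacceptor of the same library (y axis; the grey line is that median) for the 3 tRNAs, with libraries as points and mean and SD in black. The points of tRNA-Phe-GAA stay between -0.12 and 0.22 in MEF cells and spread from -0.04 to 1.28 in NTERT cells. All points of tRNA-Cys-GCA lie below the line and all points of tRNA-Trp-CCA above it.

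Among the isoacceptors tested in MEF NT, tRNA-Cys-GCA was 17th, tRNA-Phe-GAA 27th and tRNA-Trp-CCA 38th of 48, counted from the least charged. In NTERT NT the places were 10th, 30th and 34th of 47. Over the 47 isoacceptors tested in both cell types, the mean log2 ratios in the control groups correlated with a Pearson r of 0.59 and a Spearman rho of 0.57, a description across tRNAs that share libraries and a family of reference sequences.

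HF was compared with NT in MEF cells to ask whether tRNAs other than those for proline changed their charging. The difference in log2 charged over uncharged reads was 0.98 (SE 0.73, adjusted p = 0.233) for tRNA-Cys-GCA, 1.42 (SE 0.73, adjusted p = 0.129) for tRNA-Phe-GAA and 1.38 (SE 0.73, adjusted p = 0.134) for tRNA-Trp-CCA by limma. None of the 3 passed the threshold of 0.05, whereas 6 of the 48 isoacceptors tested were called higher (12.5%). Their 95% intervals were -0.45 to 2.41, -0.01 to 2.86 and -0.05 to 2.81. The median difference of all 48 was 1.21, so the values of the 3 tRNAs were near that of a typical isoacceptor, at places 34, 16 and 18 from the highest. Groups did not overlap for 0 of the 3, beside 29.2% of all isoacceptors.

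These calls moved with single libraries. Without MEF NT library 3, which was the most charged control, tRNA-Phe-GAA passed at 1.87 (adjusted p = 0.0384) and tRNA-Trp-CCA at 1.82 (adjusted p = 0.0414), and without MEF HF library 3 tRNA-Phe-GAA passed at 1.81 (adjusted p = 0.0457). Over the 6 ways of leaving out a library, the difference of tRNA-Cys-GCA ranged from 0.46 (without MEF NT library 2) to 1.45 (without MEF NT library 3). It was not called in any, with adjusted p up to 0.582 by limma. The differences ranged from 1.00 to 1.87 for tRNA-Phe-GAA and from 1.04 to 1.82 for tRNA-Trp-CCA, with adjusted p up to 0.417. The number of isoacceptors called in either direction, 9 with all libraries, was 0 without MEF NT library 1 or MEF HF library 2, 4 without MEF NT library 2, 3 without MEF HF library 1, 22 without MEF NT library 3 and 18 without MEF HF library 3. An exact permutation test of the percentage, two-sided over 20 labelings with 0.1 as the smallest possible p, gave p = 0.2 for each of the 3 tRNAs (0.45 adjusted over the 18 tests of this family), and 2 of 3 HF libraries lay above all controls for each.

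Relative to the library median, none of the 3 tRNAs passed the threshold in HF against NT. The differences were -0.38 (SE 0.29, adjusted p = 0.610) for tRNA-Cys-GCA, 0.07 (SE 0.24, adjusted p = 0.884) for tRNA-Phe-GAA and 0.02 (SE 0.26, adjusted p = 0.958) for tRNA-Trp-CCA by limma. Leaving out a library moved tRNA-Cys-GCA to between -0.54 (without MEF HF library 2) and -0.15 (without MEF HF library 1). The 95% intervals were -1.05 to 0.29, -0.50 to 0.63 and -0.59 to 0.63, so that a relative change by more than 0.63 in either direction lies outside the interval for tRNA-Phe-GAA and tRNA-Trp-CCA. Over all isoacceptors 6.25% were called, and these were the 3 proline tRNAs, with differences of -3.87 to -3.61.

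**Figure D3:**
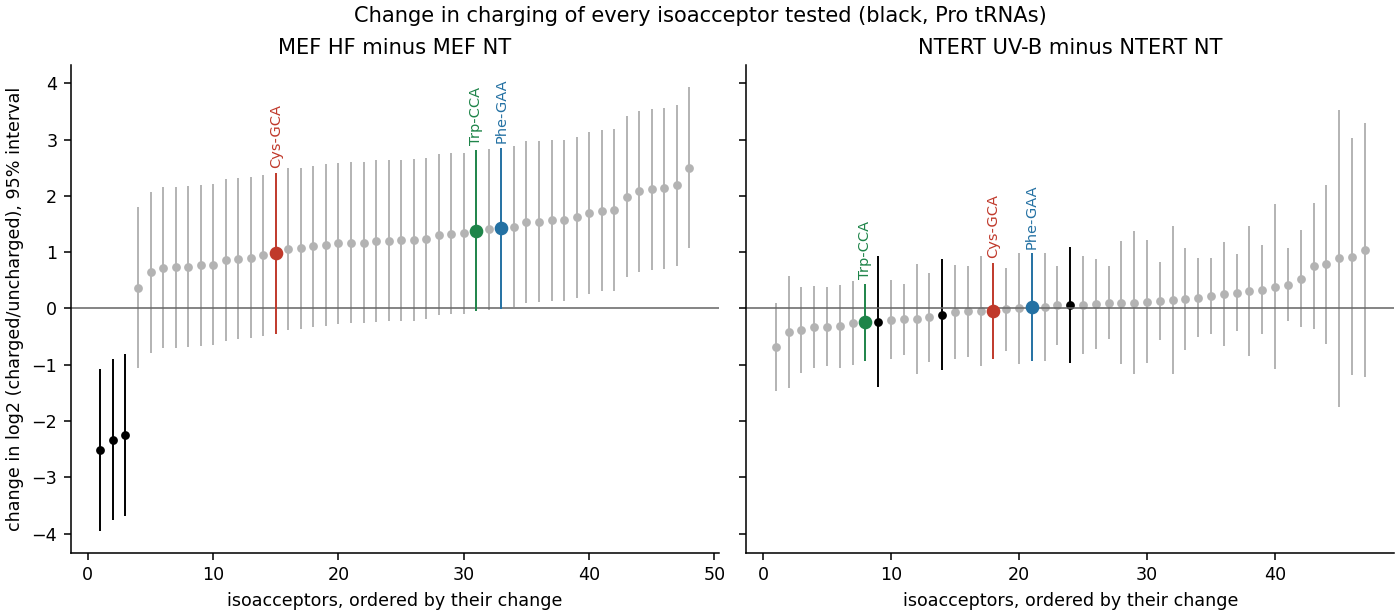
Difference in log2 charged over uncharged reads between treated and control libraries (y axis, points with 95% limma intervals) for each isoacceptor tested, in order of size (x axis), with the 3 tRNAs in color and the proline tRNAs in black. In MEF cells the 3 tRNAs sit at 0.98 to 1.42 among the others, apart from proline at -2.52 to -2.25, and in NTERT cells they sit near 0.

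UV-B was compared with NT in NTERT cells to ask whether irradiation left any tRNA uncharged. The limma differences were -0.04 (SE 0.37) for tRNA-Cys-GCA, 0.02 (SE 0.41) for tRNA-Phe-GAA and -0.25 (SE 0.30) for tRNA-Trp-CCA, each with an adjusted p of 0.986. No isoacceptor was called in either direction (0% of 47), and 0 had an unadjusted p under 0.05. The 95% intervals reached from -0.89 to 0.81, -0.94 to 0.98 and -0.94 to 0.44, which leaves room for changes of nearly 1 on the log2 scale. After subtraction of the library median the differences were 0.02, 0.09 and -0.18 (adjusted p of 0.981, 0.939 and 0.935), again beside 0% called and 0 of 47 with an unadjusted p under 0.05.

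For tRNA-Cys-GCA the UV-B mean rests on library 1, where it was the least charged of the 47 isoacceptors. Without that library the difference was 0.27 rather than -0.04 (adjusted p = 0.582). UV-B library 2 set the lowest value of tRNA-Phe-GAA, at 44.2%, while the other two irradiated libraries exceeded all controls. For tRNA-Trp-CCA, 1 of 3 UV-B libraries lay below all controls, and the exact permutation test gave p = 0.3 beside p = 1 for the other two.

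The tRNAs with the most similar charging were chosen by the mean absolute difference of the log2 ratio over the 6 libraries of a cell type. In MEF cells, Thr-AGT (0.26) and Thr-TGT (0.38) were nearest to tRNA-Cys-GCA among 47 candidates. Gln-TTG (0.21) and Leu-CAG (0.24) were nearest to tRNA-Phe-GAA, and Arg-TCG (0.18) and Gly-TCC (0.20) to tRNA-Trp-CCA. In NTERT cells, Ser-TGA (0.27) and His-GTG (0.28) were nearest to tRNA-Cys-GCA among 46 candidates. There, Leu-CAA and Arg-CCG were nearest to tRNA-Phe-GAA (0.31 and 0.43) and Leu-CAA and Asn-GTT to tRNA-Trp-CCA (0.28 and 0.36). No neighbor was the same in both cell types, and all of these values share the libraries in which they were measured.

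Other tRNAs that serve an amino acid through a single main anticodon (Asn-GTT, Asp-GTC, His-GTG and Tyr-GTA) were summarized in the same way. In MEF cells 0 of these 4 were called under HF by limma, beside 12.5% of all isoacceptors called higher and 6.25% lower, with a median difference of 1.38 beside 1.21 for all isoacceptors and a range from 0.73 for His-GTG to 1.73 for Tyr-GTA. Of 10 tRNAs for glutamate, glycine and serine, which include the other amino acids of glutathione and the serine from which cells make cysteine, Glu-CTC and Glu-TTC rose in MEF HF by 2.08 and 2.13 (adjusted p of 0.0274 and 0.0271), and the median was 1.18 with Ser-CGA lowest at 0.72. Relative to the library median their differences were 0.72 and 0.77 (adjusted p of 0.487 and 0.502), and 0 of the 10 were called. After UV-B, 0 of 4 and 0 of the 9 tested were called, beside 0% of 47 isoacceptors, with medians of 0.19 and 0.28 beside 0.06 for all.

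The share of reads taken by the 3 tRNAs was small. The mean was 5.60 reads per 10000 in MEF NT and 5.31 in MEF HF for tRNA-Cys-GCA, 17.7 and 16.4 for tRNA-Phe-GAA, and 6.79 and 4.85 for tRNA-Trp-CCA. In NTERT cells the means before and after UV-B were 20.8 and 19.4 for tRNA-Cys-GCA, 13.4 and 9.77 for tRNA-Phe-GAA, and 5.88 and 5.82 for tRNA-Trp-CCA. Thus tRNA-Phe-GAA took the most reads of the 3 in MEF cells and tRNA-Cys-GCA in NTERT cells. These tRNAs are of nearly the same length, mostly 72 bases for tRNA-Cys-GCA and tRNA-Trp-CCA and 73 for tRNA-Phe-GAA in the mouse RefSeq annotation (lengths of the human genes were not used here).

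Per library, tRNA-Cys-GCA had 5.87, 8.29 and 2.66 reads per 10000 in MEF NT and 4.65, 4.02 and 7.25 in MEF HF. All 3 HF values thus lay within the range of the controls. tRNA-Phe-GAA had 18.6, 20.1 and 14.3 in MEF NT and 17.7, 18.4 and 13.0 in MEF HF. tRNA-Trp-CCA had 7.31, 8.45 and 4.61 against 4.17, 6.08 and 4.32, with 2 of 3 HF libraries below all controls. After TMM scaling the log2 differences were 0.17, 0.04 and -0.31 (SE 0.35 each, adjusted p of 0.822, 0.949 and 0.607 by limma), and none was called, beside 14.6% of the 48 isoacceptors in either direction. Those 7 calls were 9 without MEF HF library 2 and 1 without any other of the 6 libraries.

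In NTERT NT the counts per 10000 were 17.9, 31.4 and 13.2 for tRNA-Cys-GCA, and after UV-B they were 24.4, 19.8 and 14.1. For tRNA-Phe-GAA they were 12.1, 19.4 and 8.68 in NT and 11.5, 10.7 and 7.11 after UV-B. For tRNA-Trp-CCA they were 6.41, 7.92 and 3.29 in NT and 8.23, 6.28 and 2.94 after UV-B. The groups overlapped throughout, and library 3 was lowest in both groups for each of the 3 tRNAs. The log2 differences were -0.08, -0.45 and -0.09 (SE 0.38, 0.37 and 0.41, adjusted p of 0.915, 0.546 and 0.915 by limma), and 0% of 48 isoacceptors were called, with 4 at an unadjusted p under 0.05.

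The percentage of charging leaves out reads without a CCA or CC end, and the share of reads that had one differed between cell types and groups. In MEF NT it was 90.7, 79.1 and 85.5% for tRNA-Cys-GCA, and in MEF HF 94.5, 92.8 and 95.3%. For tRNA-Phe-GAA it was 89.8, 86.0 and 84.9% in NT and 96.0, 94.99 and 94.1% in HF. For tRNA-Trp-CCA it was 91.6, 86.8 and 92.7% in NT and 97.1, 94.9 and 94.7% in HF. Every HF library was above every control for each of the 3.

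On the log2 scale of reads with over reads without an end, tRNA-Cys-GCA rose by 1.46 (SE 0.47, adjusted p = 0.00643), tRNA-Phe-GAA by 1.53 (SE 0.47, adjusted p = 0.00447) and tRNA-Trp-CCA by 1.20 (SE 0.47, adjusted p = 0.0177) in MEF HF by limma. This was common to most tRNAs: 79.2% of the 48 isoacceptors were called higher, groups did not overlap for 72.9%, and the median difference was 1.29. tRNA-Trp-CCA lost its call without MEF NT library 2 (0.91, adjusted p = 0.0719) and without MEF HF library 1 (0.90, adjusted p = 0.115). Over all tRNA genes, 86.9 to 93.8% of reads had an end in MEF NT and 96.0 to 96.6% in MEF HF. The share of reads on tRNA genes given above was likewise higher in each HF library than in each control. Within a group these shares were not ordered alike. MEF NT library 3 had the highest share with an end, 93.8%, and the lowest on tRNA genes, 3.43%. The part of either in the charging values was not tested.

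In NTERT cells fewer reads had an end, 47.2 to 62.8% over all tRNA genes. For tRNA-Phe-GAA it was 31.8, 19.7 and 30.02% in NT and 21.8, 29.4 and 34.7% after UV-B, under the library median of 42.9 to 54.3% in all 6. tRNA-Trp-CCA had 47.1, 32.3 and 44.4% in NT and 37.4, 44.2 and 49.8% after UV-B. tRNA-Cys-GCA had 46.8, 28.0 and 43.7% in NT and 52.4, 51.6 and 70.7% after UV-B, so that its groups did not overlap, beside 12.5% of isoacceptors for which they did not.

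That difference of tRNA-Cys-GCA was 1.14 (SE 0.46, 95% interval 0.04 to 2.24) on the log2 scale, the second highest of 48, with an unadjusted p of 0.0446 and an adjusted p of 0.650 by limma. Without UV-B library 3 it was 0.75 (unadjusted p = 0.137) and without NT library 2 it was 0.78 (unadjusted p = 0.127) by limma. It did not pass the threshold, nor did tRNA-Phe-GAA at 0.11 or tRNA-Trp-CCA at 0.15 (adjusted p of 0.881 and 0.824). Of all isoacceptors 0% were called, with 3 at an unadjusted p under 0.05. The exact permutation test gave its smallest possible p of 0.1 for tRNA-Cys-GCA (0.45 adjusted over the 18 tests), and 3 of 3 UV-B libraries were above all controls.

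**Figure D4:**
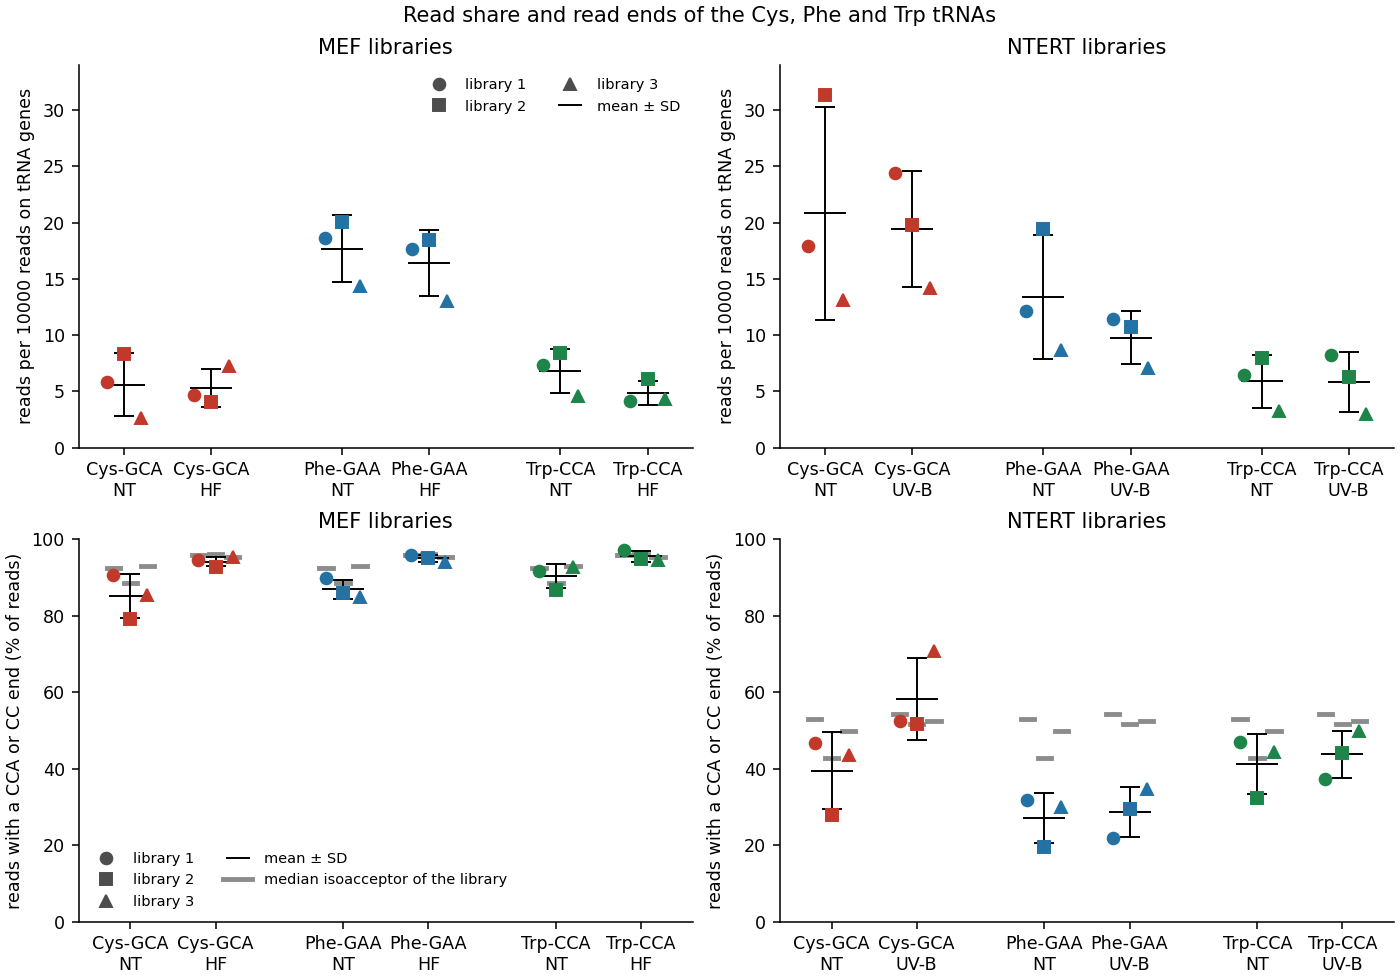
Reads per 10000 reads on tRNA genes (top) and percentage of reads with a CCA or CC end (bottom) for the 3 tRNAs in each library, with mean and SD in black and the library's median isoacceptor as a grey bar (bottom). Every HF library is above every MEF control in the bottom left panel, and tRNA-Cys-GCA after UV-B, at 51.6 to 70.7%, is above its controls, at 28.0 to 46.8%.

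The mouse genes of these families lie in very different arrangements. In RefSeq's annotation of GRCm38.p6, 48 of the 56 genes for tRNA-Cys-GCA lie on chromosome 6 between 47978997 and 48363603, and the others on chromosomes 11 (5 genes), 9 (2) and 17 (1). The 7 genes for tRNA-Phe-GAA are scattered over 5 chromosomes, and the 8 for tRNA-Trp-CCA over chromosomes 11 (4), 10 (2) and 13 (2). RefSeq names these genes differently from the deposited tables, and single genes could not be matched between them.

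In MEF cells 1 gene held most of the reads of each tRNA. Cys-GCA-3-1 took 69.3% of the reads of its family, and 4 of 22 genes made up 90% of them. Phe-GAA-1-1 took 83.9% and Trp-CCA-5-1 took 74.6%. All 22 genes for tRNA-Cys-GCA had reads, but 5 of them had under 10 in the 6 libraries together. In a single MEF library 15 to 20 of the 22 had a read, whereas each gene for tRNA-Phe-GAA and tRNA-Trp-CCA was read in each library.

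NTERT cells divided their reads more evenly. Cys-GCA-2-1 held 15.2% of the reads for tRNA-Cys-GCA, 17 of 23 genes were needed for 90%, and all 23 had reads in each library. Phe-GAA-1-1 held 54.0% and Trp-CCA-2-1 held 47.3%, and all 5 genes of each family were read in every library. Near-identical genes of a family share reads, so the division among genes depends on how the aligner placed reads that fit several of them.

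Single genes were also compared in their charging. With the reads of 6 MEF libraries summed, the 3 genes for tRNA-Phe-GAA were 79.6 to 81.4% charged, and the 6 for tRNA-Trp-CCA were 66.7 to 85.7%. For tRNA-Cys-GCA, the 12 genes with at least 20 reads with an end ranged from 0 to 85.5%. The 3 most-read genes were charged to 71.7% for Cys-GCA-3-1 (95% interval 70.5 to 72.9), 80.8% for Cys-GCA-7-1 (78.0 to 83.3) and 60.5% for Cys-GCA-2-1 (56.4 to 64.4). Such pooled intervals leave out the spread between libraries.

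A few genes stood apart and were chosen after their values were seen. In MEF cells Cys-GCA-25-1 had 0 charged reads of 39 with an end, which allows a share of up to 7.69% by the limit of 3 counts and up to 9.03% by the Clopper-Pearson interval. Cys-GCA-1-1 had 2 of 45 (4.44%) in the NT and 29 of 77 (37.7%) in the HF libraries, too few for the test. In NTERT cells Cys-GCA-23-1 had 1 charged read of 29 (3.45%, 0.09 to 17.8), while Cys-GCA-22-1 had 58 of 73 (79.5%, 68.4 to 88.0). Phe-GAA-4-1 had 677 reads in NTERT cells, but only 8.12% of them had an end. The most-read NTERT genes were 29.99% (Cys-GCA-2-1), 59.4% (Phe-GAA-1-1) and 71.7% (Trp-CCA-2-1) charged.

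**Figure D5:**
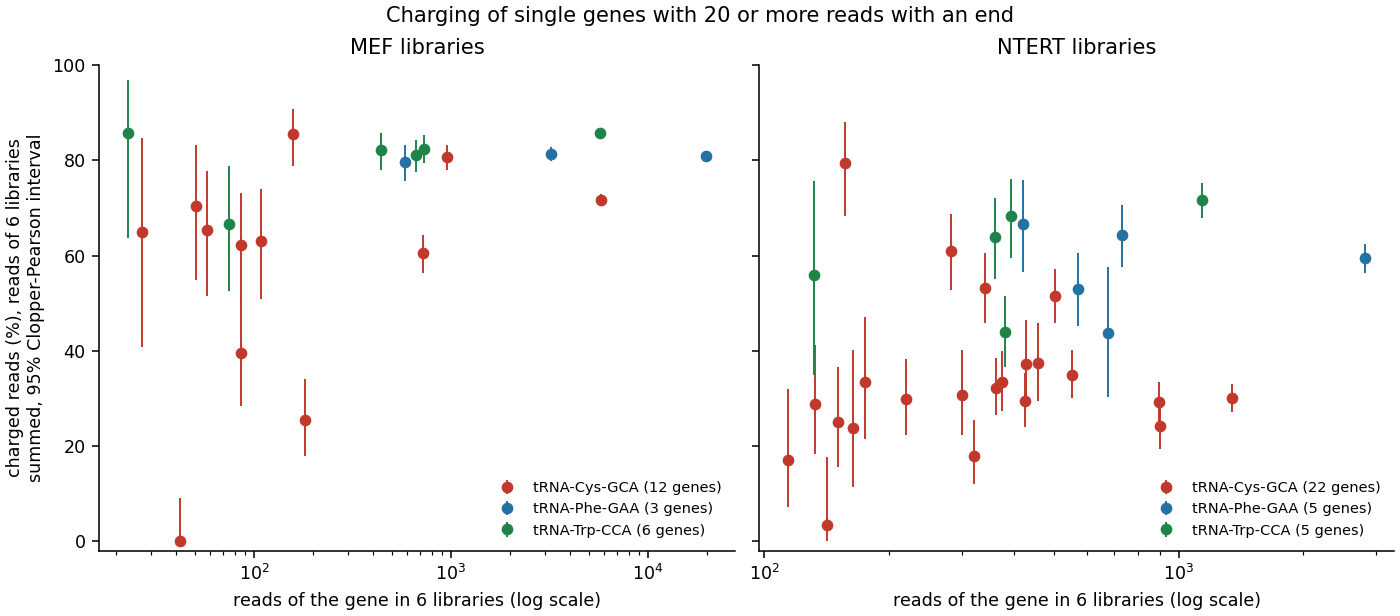
Percentage of charging (y axis, with 95% Clopper-Pearson intervals) against the reads of each gene in 6 libraries (x axis, log scale), for genes of the 3 tRNAs with at least 20 reads with an end. MEF genes for tRNA-Cys-GCA range from 0 to 85.5%, against 79.6 to 81.4% for tRNA-Phe-GAA.

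Besides the most-read gene of each tRNA, the next ones were read well enough to give library values in MEF cells. Phe-GAA-3-1 was 70.0, 46.7 and 83.3% charged in NT and 94.95, 90.3 and 78.2% in HF, close to Phe-GAA-1-1 at 70.2, 59.5 and 81.6% and 90.9, 86.7 and 79.3%. Phe-GAA-2-1 had 72.3, 50 and 79.0% against 88.9, 87.1 and 79.1%, from 22 to 182 reads with an end. Within NT and within HF, all 3 genes of this family ordered the libraries as their sum did. HF library 3 lay below NT library 3 in Phe-GAA-1-1 and Phe-GAA-3-1, as in the sum, and just above it in Phe-GAA-2-1.

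For tRNA-Trp-CCA, Trp-CCA-5-1 was 74.8, 70.5 and 85.7% charged in NT and 94.2, 90.4 and 86.8% in HF, so that its groups did not overlap. Trp-CCA-3-1 had 83.8, 56.1 and 79.6% against 89.6, 87.5 and 82.4%. Trp-CCA-2-1 had 65.0, 58.8 and 96.3% against 91.8, 85.4 and 78.9%. For tRNA-Cys-GCA, Cys-GCA-3-1 had 66.3, 50.2 and 74.9% in NT and 79.5, 83.2 and 70.2% in HF, Cys-GCA-7-1 had 76.0, 58.7 and 87.9% against 77.9, 83.7 and 83.6%, and Cys-GCA-2-1 had 59.3, 18.8 and 66.7% against 76.8, 74.2 and 58.4%.

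None of the 10 member genes with a mean of at least 50 reads with an end in MEF cells was called under HF by limma, beside 11.5% of the 139 genes tested that were called higher. The largest difference was 1.97 for Phe-GAA-3-1 (SE 0.76, adjusted p = 0.0550), which passed with a pseudocount of 5 (1.88, adjusted p = 0.0488), without MEF NT library 3 (2.57, adjusted p = 0.0104) and without MEF HF library 3 (2.60, adjusted p = 0.0129). The smallest was 0.50 for Cys-GCA-7-1 (adjusted p = 0.529). Groups did not overlap for 2 of the 10, Phe-GAA-2-1 (1.43, adjusted p = 0.145) and Trp-CCA-5-1 (1.52, adjusted p = 0.131), beside 30.9% of all genes. Without MEF NT library 3, Phe-GAA-2-1, Trp-CCA-5-1, Trp-CCA-2-1 and Cys-GCA-2-1 also passed, with differences of 1.83, 1.91, 1.89 and 1.97 (adjusted p of 0.0487, 0.0409, 0.0409 and 0.0364), as did 64 of the 140 genes tested there, beside 20 of 139 with all libraries, 40 of 131 without MEF HF library 3 and 0 to 5 without any of the others.

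In NTERT cells 6 member genes could be tested, and their limma differences ran from -0.80 for Cys-GCA-13-1 to 0.58 for Cys-GCA-2-1 (adjusted p = 0.999 for each). Over all 168 genes 0% were called, with 3 at an unadjusted p under 0.05. Cys-GCA-2-1 was 21.9, 22.7 and 29.2% charged in NT and 34.2, 32.4 and 32.5% after UV-B, and it was the only one of the 6 whose groups did not overlap, beside 7.74% of genes. Phe-GAA-1-1 had 59.5, 67.9 and 54.0% against 73.2, 48.8 and 65.9%, and Trp-CCA-2-1 had 77.5, 62.8 and 72.7% against 68.8, 60.3 and 75.0%. The sum for tRNA-Cys-GCA in UV-B library 1, at 23.1%, was therefore below its most-read gene, at 34.2%, in that library.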

How the data were processed

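tRNA charging was measured by sequencing in 12 libraries, 3 per group, which the methods describe as biological replicates. Per the labels and the methods, the authors separated reads by adapter barcode, trimmed them (Trim Galore, cutadapt), and aligned them with Bowtie2 to tRNA genes, for human cells those of gtRNAdb. Versions are not given in the sources used here. The random bases of the adapter have no stated use in removing duplicates. The deposited files give unnormalized read counts, whole numbers in 3 unnamed columns for each gene. These were read as all, charged and uncharged reads, in NTERT as in MEF cells. Unaligned reads and 2 yeast tRNA-Phe sequences (0 to 5 reads per library) were left out. For HF, the methods give another duration than the 6 h of the labels.

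Charging was tested with limma 3.58.1 in R 4.3.3 on log2 of charged over uncharged reads with 0.5 added to each, for features with a mean of at least 50 such reads, in MEF and NTERT cells apart. Benjamini-Hochberg adjustment covered all features tested, and the threshold was 0.05. Read shares were tested with limma on log2 counts scaled by TMM (trims of 30% and 5%). A count model planned for them was not run, because the layout kept the unit of the columns from being checked automatically, although they hold whole numbers. In the MEF fits of charging, single genes and read share, limma gave all features the same SE. In the fit of MEF read ends the SE was 0.46 to 0.48 throughout. Such pooling treats features as independent, although in charging they deviate together between libraries. The p-values of these fits can therefore be too small. The isoacceptor fits of charging and read share were run on simulated reads, with a spread between libraries that was independent for each isoacceptor. That simulation did not test the fits under shifts shared by the isoacceptors of a library. Exact tests and intervals used scipy 1.17.1, tables pandas 2.3.3 and numpy 2.4.6, and figures matplotlib 3.10.9, all under Python 3.11.15. The alternatives were other pseudocounts, minimum reads, scalings and weights, a replicate block, and leaving out each library.

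The members, lists and tests were chosen with earlier results of these data known. Named were the 3 tRNAs, the 3 genes with most reads of each, genes past the threshold, the 2 nearest isoacceptors, the proline tRNAs and the extremes of both lists. Same-numbered libraries were not treated as pairs, since in no measure did each pair's deviations correlate above 0.1. The correlations ran across isoacceptors, so they cannot show whether a pair shared a library-wide level. The files number the NTERT libraries 1 higher than the sample titles in both groups, and the titles were used. No sequence of these tRNAs was used here.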

Additional observations from a re-analysis of the deposited data

How the results depend on the processing

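Of 94 values of the 3 tRNAs under alternatives other than leaving out a library, 88 kept their direction and their side of the threshold. For the share of reads in MEF cells, the 7 isoacceptors past the threshold became 1 with library totals, 4 without a minimum number of reads and 3 with charged plus uncharged reads, and tRNA-Phe-GAA turned from 0.04 to -0.11 with library totals and to -0.023 with charged plus uncharged reads. In NTERT cells tRNA-Cys-GCA turned from -0.08 to 0.42 with charged plus uncharged reads. Relative to the library median, tRNA-Trp-CCA in MEF cells became -0.041 with a pseudocount of 5, and in NTERT cells tRNA-Cys-GCA became -0.13 and tRNA-Phe-GAA -0.072 when the mean was subtracted. Without a minimum number of reads, 2 rather than 20 single genes passed in MEF cells, and Phe-GAA-3-1 passed with a pseudocount of 5 (1.88, adjusted p = 0.0488). None of these turned values had passed the threshold, and the cause was not tested.

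The deviations of same-numbered libraries 1, 2 and 3 correlated at -0.10, -0.11 and -0.03 in MEF and -0.35, 0.02 and -0.49 in NTERT charging. In read share they correlated at 0.16, 0.08 and -0.34 in MEF and -0.31, 0.59 and 0.53 in NTERT cells, and in read ends at 0.04, 0.08 and 0.14 and at -0.35, 0.29 and 0.36. Libraries 2 and 3 thus deviated together in the NTERT read share and ends, but not each pair did in any measure, and the numbers were not taken to mark pairs. With the number as a replicate block, 0 rather than 9 isoacceptors and 0 rather than 20 genes passed in MEF charging.

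Leaving out a library gave 0 to 22 isoacceptors past the threshold in MEF charging, 1 to 9 in MEF read share, 24 to 38 in MEF read ends and 0 to 64 among MEF genes, and 0 to 1 in NTERT charging relative to the median and in NTERT read share. In MEF cells, charging ranged from 0.46 to 1.45 for tRNA-Cys-GCA, from 1.00 to 1.87 for tRNA-Phe-GAA and from 1.04 to 1.82 for tRNA-Trp-CCA, and relative to the median from -0.54 to -0.15, from -0.0093 to 0.11 and from -0.13 to 0.14. The MEF read share ranged from -0.21 to 0.43 for tRNA-Cys-GCA and from -0.25 to 0.11 for tRNA-Phe-GAA, and MEF read ends of tRNA-Trp-CCA from 0.90 to 1.39. In NTERT charging the ranges were -0.23 to 0.27 for tRNA-Cys-GCA and -0.23 to 0.45 for tRNA-Phe-GAA, and relative to the median -0.22 to 0.48, -0.22 to 0.44 and -0.35 to 0.065 for tRNA-Cys-GCA, tRNA-Phe-GAA and tRNA-Trp-CCA. The NTERT read share ranged from -0.29 to 0.24 for tRNA-Cys-GCA and from -0.39 to 0.24 for tRNA-Trp-CCA, and NTERT read ends from -0.18 to 0.36 for tRNA-Phe-GAA and from -0.12 to 0.34 for tRNA-Trp-CCA. Among single genes, Cys-GCA-7-1 (-0.076 to 1.08) and Trp-CCA-2-1 (-0.10 to 1.89) in MEF and Cys-GCA-4-1 (-0.56 to 0.88), Phe-GAA-1-1 (-0.17 to 0.56) and Trp-CCA-2-1 (-0.49 to 0.039) in NTERT cells changed sign.

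The count models and the median-of-ratios scaling listed as alternatives were not run, because the unit of the columns could not be checked automatically. In NTERT cells 65 to 519 reads with an end stand behind each percentage of tRNA-Phe-GAA and tRNA-Trp-CCA, and 3 libraries per group leave intervals near 1 on the log2 scale.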
